A study of Mus musculus with 2 samples.

Results

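10 genes of cytokine signalling were followed in CD69+ CD4 CD8 double-positive (DP) thymocytes. Of these, 9 encode receptor subunits (Il7r, Il2rg, Il2rb, Il4ra, Il6ra, Ifngr1, Ifnar1, Tgfbr1 and Tgfbr2). The other, Socs1, encodes an inhibitor of signalling through JAK kinases. All 10 were found by their mouse Entrez identifiers. By Entrez identifier and mm10 position per the deposited tables, the genes are Il7r (16197) at chr15:9506159-9529876 on the minus strand, Il2rg (16186) at chrX:101264385-101268255 on the minus strand, Il2rb (16185) at chr15:78480549-78495066 on the minus strand, Il4ra (16190) at chr7:125552282-125579474 on the plus strand, Il6ra (16194) at chr3:89869324-89913196 on the minus strand. The others are Ifngr1 (15979) at chr10:19591949-19610227 on the plus strand, Ifnar1 (15975) at chr16:91485215-91510522 on the plus strand, Tgfbr1 (21812) at chr4:47353222-47414924 on the plus strand, Tgfbr2 (21813) at chr9:116087695-116175363 on the minus strand and Socs1 (12703) at chr16:10783809-10785536 on the minus strand. All 10 were present as 1 entry each among 24532 gene identifiers, and all 10 were among the 12029 genes with at least 1 TPM in a library. TPM values are corrected for transcript length and add up to 1000000 per library, so they can be compared between genes.

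The series holds 2 RNA sequencing libraries from sorted CD69+ DP thymocytes of C57BL/6 mice aged 6 weeks. One library carries the genotype NSRP1f/f, which the labels call wild type, and the other NSRP1f/fCD4Cre, called the NSrp70 conditional KO. Both groups thus carry the floxed Nsrp1 alleles, and the KO group adds a Cre recombinase named for CD4. CD4-Cre is a transgene that acts in cells that have reached CD4 expression, and NSrp70, the product of Nsrp1, is an RNA-binding protein that takes part in pre-mRNA splicing. There was 1 library per genotype, so no test between the genotypes was possible. The 95% intervals given here cover counting error in the estimated read pairs only, and a difference between the libraries cannot be told apart from one between animals. The number of mice behind each library is not given in the labels.

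The cell label and the genotype label were read against their defining RNAs. The 11 DP markers (among them Cd4, Cd8a, Cd8b1, Cd69, Rag1, Rag2 and Dntt) were all above 1 TPM and summed to 5743 TPM in the wild-type library and 6288 TPM in the KO-labelled library. Nsrp1 itself stood at 29.7 and 29.6 TPM, so the deletion is not visible in its total RNA, and the second library is called KO-labelled throughout, by its label only. The X-inactivation RNA Xist stood at 202 and 76.3 TPM and the Y-linked Ddx3y at 31.1 and 71.2 TPM, so RNA of both sexes was present in both libraries at differing levels. Among markers of other cells, 10 myeloid and dendritic genes summed to 445 and 329 TPM, 8 NK and innate lymphoid genes to 52.7 and 75.1 TPM, and 6 matched B cell genes to 54.0 and 62.5 TPM. The 5 regulatory and agonist-selected T cell genes summed to 228 and 205 TPM, the 3 matched gamma-delta genes to 9.33 and 9.11 TPM, and the 6 erythroid genes to 1.36 and 3.08 TPM. The 6 thymic epithelial genes summed to 7.08 and 8.61 TPM, nearly all of it Epcam (6.87 and 8.35 TPM), with Foxn1, Krt5 and Krt8 listed at 0 in both. The libraries held an estimated 20.8 M and 25.1 M read pairs (M, 1000000).

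Cytokine receptors of the type I family pair a ligand-specific chain with a shared chain and signal through JAK kinases, which phosphorylate STAT factors that move to the nucleus. The common gamma chain, encoded by Il2rg, is shared by the receptors for interleukins 2, 4, 7, 9, 15 and 21. Interferon receptors use the same kinase family, and SOCS1 binds JAKs and shuts their signal down. The TGF-beta receptors are kinases themselves and act on SMAD proteins. In the thymus, DP cells are known for low IL-7 receptor and high SOCS1, and cells that receive a positive selection signal regain Il7r as they mature, while CD69 marks that signal.

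The type I family carries a hallmark in its extracellular part, a tryptophan-serine-any-tryptophan-serine box (WSXWS), needed for folding of the receptor. Codons for it (TGG, a serine codon, any codon, TGG, a serine codon) were searched in frame in the GENCODE M21 coding sequence (GRCm38) of all 10 genes. They were found once each in Il7r, Il2rg, Il2rb, Il4ra and Il6ra, and in none of Ifngr1, Ifnar1, Tgfbr1, Tgfbr2 and Socs1. The 5 boxes are shown because they separate the interleukin receptor chains from the others and because 1 of them lies in a stretch that an annotated transcript lacks. Capitals mark the box and lower case the coding bases on either side, 5′ to 3′.
Il7r, chr15:9511151-9511165, minus strand: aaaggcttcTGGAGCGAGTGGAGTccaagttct
Il2rg, chrX:101266215-101266229, minus strand: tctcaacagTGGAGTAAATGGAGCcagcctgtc
Il2rb, chr15:78485763-78485777, minus strand: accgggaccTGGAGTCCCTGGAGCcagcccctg
Il4ra, chr7:125571554-125571568, plus strand: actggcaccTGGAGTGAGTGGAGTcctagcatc
Il6ra, chr3:89885930-89885944, minus strand: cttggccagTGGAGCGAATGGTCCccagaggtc

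Of the 10 genes, 5 have 1 transcript in the deposited RefSeq annotation (Il7r, Il2rb, Il4ra, Ifngr1 and Ifnar1) and 5 have more, 16 transcripts in all. Coding stretches by which the transcripts differ are shown for Il2rg, Tgfbr1, Tgfbr2 and Il6ra, since the shares of transcripts given further on rest on them. Capitals mark the stretch present in one transcript and absent from the other. Lower case marks the 15 spliced bases on each side, from GENCODE M21 (GRCm38).
Il2rg, 104 bases in NM_013563 and not in NM_001308535, chrX:101266181-101266284, minus strand: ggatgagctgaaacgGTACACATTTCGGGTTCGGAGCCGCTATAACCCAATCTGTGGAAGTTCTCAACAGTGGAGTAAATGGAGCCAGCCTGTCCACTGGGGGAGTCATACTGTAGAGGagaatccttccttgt
Tgfbr2, exon of 75 bases in NM_009371 and not in NM_029575, chr9:116158271-116158345, minus strand: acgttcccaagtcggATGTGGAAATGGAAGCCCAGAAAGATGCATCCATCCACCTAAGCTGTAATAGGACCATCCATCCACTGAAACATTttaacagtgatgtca
Tgfbr1, 12 bases in NM_009370 and not in NM_001312868, chr4:47393247-47393258, plus strand: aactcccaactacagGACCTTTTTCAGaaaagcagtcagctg
Il6ra, 3 bases in NM_010559 and not in NM_001310676, chr3:89878893-89878895, minus strand: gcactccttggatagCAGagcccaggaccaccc

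The 10 genes spanned a wide range of levels. In the wild-type library the order was Il2rg, Ifngr1, Il4ra, Socs1, Tgfbr2, Ifnar1, Il7r, Tgfbr1, Il2rb and Il6ra, from 979 to 3.75 TPM. The order in the KO-labelled library was the same except that Socs1 stood above Il4ra. Il2rg lay at or above 99.0% of the 12029 genes in the wild-type library, and Il6ra at or above 15.5% of them. Neighbours with overlapping intervals were Il4ra and Socs1, and Tgfbr2 and Ifnar1, in the wild-type library, and Il7r and Tgfbr1 in the KO-labelled library.

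**Figure D1:**
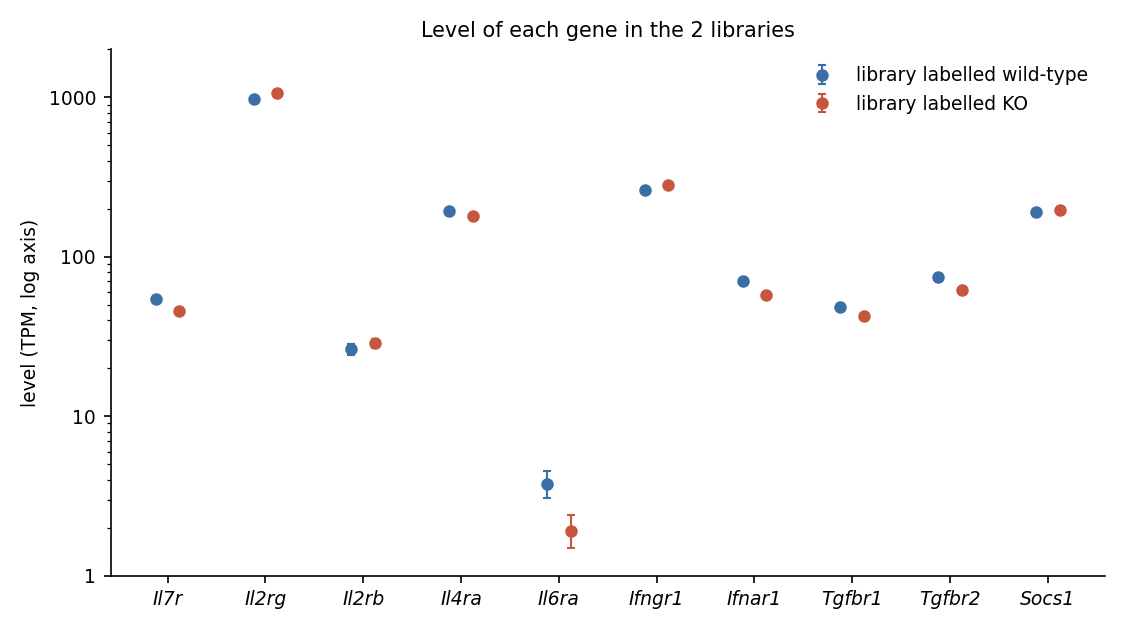
Level of each of the 10 genes in TPM on a log axis, with the wild-type library in blue and the KO-labelled library in red; points are the 1 library per genotype and bars are 95% Poisson intervals of the estimated read pairs. Il2rg is the highest at 979 and 1056 TPM and Il6ra the lowest at 3.75 and 1.90 TPM.

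Differences between the libraries were small for 9 of the 10 genes. A log2 fold change, KO-labelled over wild-type, was taken on TPM + 1. None of the 10 reached a size of 1, where 2.03% of the 12029 genes did. One, Il6ra, was at least 0.5 lower, where 6.42% of all genes were. None was at least 0.5 higher, against 3.37% of all genes, and 9.78% of all genes passed a size of 0.5 in either direction. The split over all genes was 405 higher and 772 lower, and moved to 394 and 351 on FPKM and to 482 and 600 after rescaling by the median ratio over genes. Of the 10, 4 were above zero and 6 below, and the median was -0.14 (-0.042 on FPKM), while 38.5% of all genes were above zero and their median was -0.07. The median of all genes came to 0.019 on FPKM and -0.005 after rescaling. Shares of all genes above or below zero are on TPM throughout. Counts of signs on FPKM or after rescaling, given further on, thus have no such background.

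**Figure D2:**
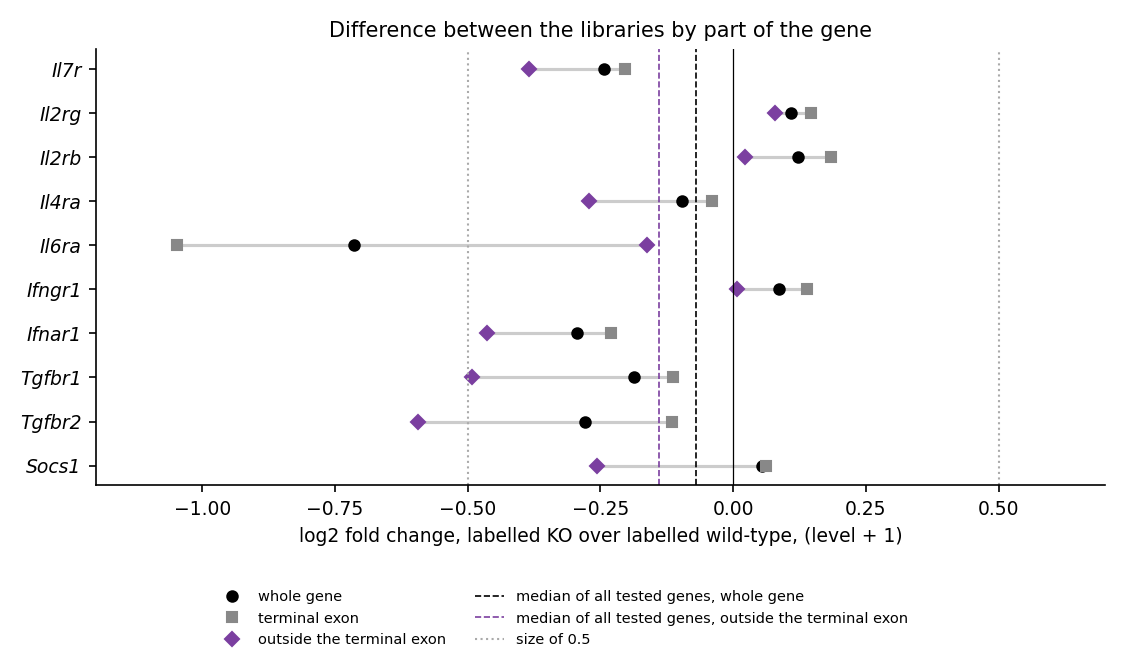
Log2 fold change of each gene between the 2 libraries (level + 1, KO over wild-type), for the whole gene (black circles), its terminal exon (grey squares) and the remaining exonic bases (purple diamonds), with dashed lines at the medians over all measured genes and dotted lines at a size of 0.5. Only Il6ra passes 0.5 as a whole gene (-0.71) and only Tgfbr2 outside the terminal exon (-0.59).

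Among the chains of the common gamma family, Il7r was lower and Il2rg higher in the KO-labelled library. Il7r, the specific chain of the IL-7 receptor, stood at 54.3 TPM (95% interval 51.6 to 57.1) in the wild-type library and 45.7 TPM (43.5 to 48.0) in the KO-labelled library. That is a ratio of 0.842 (0.784 to 0.903) and a log2 fold change of -0.24, at which 24.5% of all genes lay lower. The intervals of the 2 libraries did not overlap.

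All 8 exons of Il7r were lower in the KO-labelled library, with ratios from 0.613 to 0.893. In 2 of them the counting interval lay below 1. The exon with the WSXWS box, the fifth, held 63.9 and 48.3 TPM-equivalents (coverage scaled as TPM is), a ratio of 0.757 (0.561 to 1.02). Il7r outside its terminal exon, which mostly holds untranslated sequence, was at 39.8 and 30.2 TPM-equivalents, a log2 fold change of -0.39.

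Il2rg, the common gamma chain, measured 979 TPM (963 to 996) and 1056 TPM (1041 to 1071), a ratio of 1.08 (1.05 to 1.10). Its log2 fold change was 0.11, close to zero, although the high depth kept the interval above 1. Along the 8 exons the ratio ran from 0.932 in the first to 1.14 in the fifth, which holds the WSXWS box. The first and second exons were slightly lower in the KO-labelled library and the other 6 higher, and scaled by covered bases the second came to 1.01. Il2rg lies on the X chromosome, and since the libraries also differed in sex-linked RNA, sex and genotype cannot be told apart as sources of this difference.

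Almost all Il2rg RNA was assigned to the transcript with the 104-base stretch and its WSXWS box. The shorter transcript, NM_001308535, which lacks the stretch, held 19.9 and 20.1 TPM, or 2.03% and 1.90% of the gene. The 104 bases are not a multiple of 3. In GENCODE M21 a second protein-coding model, Gm20489, overlaps the same locus on the same strand and shares 42.0% of the 50-base words of Il2rg, and the deposited tables do not split it off.

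Il2rb, the beta chain shared by the IL-2 and IL-15 receptors, measured 26.2 TPM (24.2 to 28.4) and 28.7 TPM (26.8 to 30.6). Its ratio of 1.09 had an interval that held 1 (0.984 to 1.21). The 10 exons gave ratios from 0.741 to 1.35, and the interval of every one held 1. Il2rb is also high in NK cells, and Nkg7, a cytotoxic granule gene and the highest of the 8 NK and innate lymphoid markers, stood at 35.2 and 52.4 TPM. Of the 7 such markers with at least 1 TPM, 5 were above zero, against 38.5% of all genes, with a median log2 fold change of 0.22. Below zero were Ncr1, at 4.30 and 3.83 TPM, and Zbtb16, at 1.05 and 0.096 TPM. The part of NK and innate lymphoid cells in the Il2rb level was not tested. Here as in all bulk samples, fewer cells of a type and less RNA per cell cannot be told apart.

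Il4ra, the ligand-binding chain for IL-4, measured 193 TPM (189 to 197) and 180 TPM (177 to 184). Its ratio was 0.935 (0.909 to 0.963) and its log2 fold change -0.10, near the median of all genes, and on FPKM the latter came to 0.0029. All 11 exons were lower in the KO-labelled library, the terminal exon least (ratio 0.973, or 1.04 when scaled by covered bases) and the first most (0.768). Without the terminal exon Il4ra was at 224 and 185 TPM-equivalents, a ratio of 0.828 (0.781 to 0.878).

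Il6ra, the ligand-binding chain for IL-6, was the lowest of the 10 genes and had the largest difference. It stood at 3.75 TPM (3.08 to 4.52) in the wild-type library and 1.90 TPM (1.48 to 2.39) in the KO-labelled library, from about 110 and 71.3 read pairs. The level was 1.98-fold lower in the KO-labelled library (1.46 to 2.71), a log2 fold change of -0.71, and 2.70% of all genes had a lower one. With a pseudocount of 5 it came to -0.34 and on FPKM to -0.47, both short of 0.5.

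The lower Il6ra level was measured in its terminal exon, and no difference was detectable outside it at this depth. The terminal exon held 4.39 and 1.61 TPM-equivalents, a ratio of 0.366 (0.240 to 0.548) from 78.4 and 37.0 read pairs. The other exonic bases stood at 2.74 and 2.35 TPM-equivalents from 31.2 and 34.4 read pairs, a log2 fold change of -0.16. Their ratio of 0.855 had an interval from 0.511 to 1.44, which overlapped that of the terminal exon only between 0.511 and 0.548. None of the other 9 exons reached 20 read pairs. The first of them held 0 read pairs in the wild-type and 5.09 in the KO-labelled library. It lies within Gm42809, an antisense gene of GENCODE M21 whose reads cannot be told apart from those of Il6ra. The exon with the WSXWS box, the sixth, held 4.24 and 4.43 TPM-equivalents from 5.20 and 7.01 read pairs.

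Il6ra is known to be expressed in mature T cells and also served as 1 of 7 markers of mature single-positive and egressing thymocytes. Of these 7, 6 were lower in the KO-labelled library, against 61.5% of all genes. At least 0.5 lower were 4, Il6ra itself among them, against 6.42% of all genes. The median log2 fold change of the 7 was -0.62, and -0.20 outside the terminal exon. Klf2, which drives thymic exit genes, stood at 41.5 and 19.3 TPM, and S1pr1, the egress receptor, at 8.28 and 3.61 TPM. The summed level of the 7 was 618 and 553 TPM. Il6ra is also expressed in myeloid cells. Of 9 myeloid and dendritic markers with at least 1 TPM, 7 were below zero, against 61.5% of all genes. Their median log2 fold change was -0.37. The lowest was H2-Ab1 (-0.56), and Lyz2 stood at 59.5 and 43.6 TPM (-0.44). Above zero were Cd68 (0.07) and Itgax (0.02). The part of either set of cells in the Il6ra and Il7r levels was not tested.

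Of the interferon receptor chains, Ifngr1 differed little and Ifnar1 was lower along its whole length in the KO-labelled library. Ifngr1, the ligand-binding chain for interferon-gamma, measured 264 TPM (257 to 271) and 280 TPM (274 to 287), a ratio of 1.06 (1.02 to 1.10). Its terminal exon had a ratio of 1.10 (1.05 to 1.16) and the rest of the gene one of 1.01 (0.948 to 1.07). The interval of each of the 6 exons before the last held 1.

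Ifnar1, 1 of the 2 chains of the type I interferon receptor, measured 70.5 TPM (68.4 to 72.6) and 57.3 TPM (55.6 to 59.0). The ratio was 0.813 (0.779 to 0.848) and the log2 fold change -0.29, with 18.8% of all genes lower. All 11 exons were lower in the KO-labelled library. Their ratios ran from 0.655 in the seventh to 0.851 in the terminal exon, and 7 of the 11 intervals lay below 1. Before the terminal exon Ifnar1 had 93.7 and 67.7 TPM-equivalents, a log2 fold change of -0.46.

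Both TGF-beta receptor chains were lower in the KO-labelled library, and more so in the exons before the last than in the last. Tgfbr2, the chain that binds TGF-beta, measured 75.0 TPM (72.4 to 77.7) and 61.7 TPM (59.6 to 63.8). Its ratio was 0.822 (0.782 to 0.864) and its log2 fold change -0.28. In the terminal exon the ratio was 0.923 (0.868 to 0.981).

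Outside the terminal exon Tgfbr2 stood at 70.0 and 46.1 TPM-equivalents, a ratio of 0.658 (0.604 to 0.717) and a log2 fold change of -0.59. It was the only 1 of the 10 genes at least 0.5 lower on that measure, where 12.1% of 11277 genes were. In 7 of its 8 exons the interval lay below 1. The exception was the second, the 75-base exon printed above, at 26.3 and 22.7 TPM-equivalents, whose ratio of 0.863 rested on 17.1 and 19.0 read pairs and had an interval from 0.425 to 1.77.

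Tgfbr1, the kinase chain that TGFBR2 phosphorylates, was at 48.5 TPM (46.6 to 50.4) and 42.5 TPM (40.9 to 44.1), a ratio of 0.876 (0.829 to 0.926). In its exons before the last it was at 33.9 and 23.8 TPM-equivalents, a ratio of 0.703 (0.619 to 0.798), and in the terminal exon the ratio was 0.923 (0.868 to 0.982). All 10 exonic blocks were lower in the KO-labelled library, except that the eighth (0.968) came to 1.03 when scaled by covered bases, and the interval lay below 1 in 6. The lowest ratio, 0.324 (0.102 to 0.897), was that of the alternative first exon of NM_001312869 and rested on 14.2 and 5.94 read pairs.

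The contrast between the terminal exon and the rest was shared by most of the 10 genes and by most genes measured. The log2 fold change of the terminal exon exceeded that of the other exonic bases in 9 of the 10 genes, with a median difference of 0.21. Over 11277 genes it did so in 76.8%, with a median of 0.18. Il6ra was the exception, at -0.89, and the only 1 of the 10 with a difference of at least 0.5 in size, which 12.9% of all genes had. Tgfbr2 came next in size, at 0.48. Outside the terminal exon the median of the 10 genes was -0.26, with 3 above zero, against -0.14 over all genes.

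**Figure D3:**
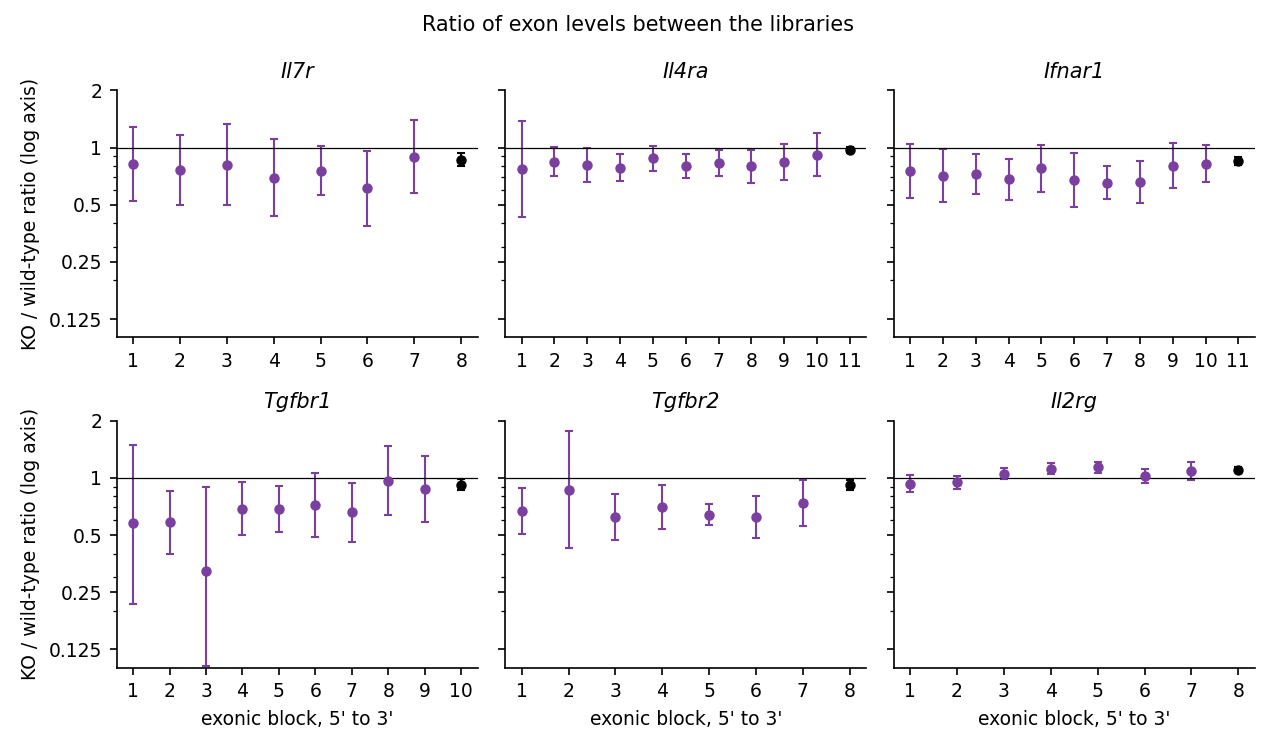
Ratio of scaled exon coverage, KO-labelled over wild-type, on a log axis for each exonic block with at least 20 read pairs in 6 of the genes, numbered 5′ to 3′, with the terminal exon in black and bars for 95% binomial intervals. All blocks of Il7r, Il4ra, Ifnar1, Tgfbr1 and Tgfbr2 lie below 1, while those of Il2rg run from 0.932 to 1.14.

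Over the 10 genes there were 85 exonic blocks, of which 76 held at least 20 read pairs. Their ratios ran from 0.324 to 1.35 with a median of 0.837. The interval lay below 1 in 28, above 1 in 4 and held 1 in 44. The 4 above 1 were 3 of Il2rg and the terminal exon of Ifngr1. These counts are on the TPM scale. Scaled by covered bases every ratio was higher, and they ran from 0.346 to 1.44. The terminal exons of Tgfbr1 and Tgfbr2, with intervals below 1 on the TPM scale, then came to 0.984 and 0.983. Intervals were not counted on that scale, so the split, here and within single genes, depends on the scaling. No such count was made over the exons of other genes, so neither these counts nor those of single genes have a background. Outside the terminal exon, 67.9% of all genes were below zero, with a median log2 fold change of -0.14. Blocks of the same gene are not independent.

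Socs1, the inhibitor, was nearly equal in both libraries. It measured 190 TPM (182 to 198) and 197 TPM (190 to 205), a ratio of 1.04 with an interval that held 1 (0.981 to 1.10). Its log2 fold change was 0.05, and 69.7% of all genes had a lower one. The second exon, which carries the coding sequence, gave a ratio of 1.04 (0.985 to 1.11). The short first exon stood at 78.4 and 65.5 TPM-equivalents, with a ratio of 0.835 (0.598 to 1.17).

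Socs1 is known to be induced through interferon-responsive elements, and Il7r through ETS family factors. The 250 bases before the start of 9 of the 10 genes were searched on both strands for an interferon-stimulated response core (GAAA, any 2 bases, GAAA), a STAT site (GAS, TTCNNNGAA) and an ETS site (ACAGGAAGT). The sequences come from RefSeq promoters of GRCm38.p6, where 9 of the 10 genes matched with 10 start sites. Il2rb had no promoter there and was not searched. Matches were present in Socs1 and Il7r, and both promoters are shown with the matches in capitals. In the other matched promoters these letters were not in the window.
Socs1 promoter, chr16:10785537-10785786, minus strand: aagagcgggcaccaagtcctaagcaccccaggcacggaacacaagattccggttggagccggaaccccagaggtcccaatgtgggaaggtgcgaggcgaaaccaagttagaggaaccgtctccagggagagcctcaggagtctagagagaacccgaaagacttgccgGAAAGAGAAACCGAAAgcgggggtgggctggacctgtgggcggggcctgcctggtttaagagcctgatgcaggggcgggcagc
Il7r promoter, chr15:9529877-9530126, minus strand: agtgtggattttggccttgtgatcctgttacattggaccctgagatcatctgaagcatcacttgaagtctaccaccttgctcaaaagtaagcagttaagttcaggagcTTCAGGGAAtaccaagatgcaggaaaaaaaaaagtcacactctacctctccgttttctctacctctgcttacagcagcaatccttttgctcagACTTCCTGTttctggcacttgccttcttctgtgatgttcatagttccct

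In Socs1 the core occurs at 83 to 74 and at 77 to 68 bases before the start, and these matches overlap. The core is present in 2.98% of 32851 promoters. In Il7r the GAS letters lie at 142 to 134 bases before the start and the ETS letters, read on the reverse strand, at 49 to 41. These occur in 7.02% and 0.794% of promoters. The 307 measured genes with the interferon core had a median log2 fold change of -0.02, and Socs1 stood at 0.05. Over 9381 measured genes with a promoter in the table the median was -0.06. The 681 measured genes with the GAS letters had a median of -0.07 and the 109 with the ETS letters one of -0.009, while Il7r stood at -0.24. A match describes the letters, not a bound site.

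Transcript shares moved by less than 25 percentage points in all 5 genes with more than 1 transcript, a size that 12.4% of 3961 genes reached. By TPM the largest change was in Il6ra, where NM_001310676, which lacks 3 coding bases, went from 63.8% to 51.0% of the gene's TPM, at 2.39 and 0.967 TPM. By the coverage of the differing exon the Il6ra shares were 55.4% and 48.7%, a smaller change, but on 0.965 and 2.47 read pairs in that exon. The TPM shares of Il6ra likewise rest on how reads were assigned between transcripts that differ by those 3 bases. In Tgfbr2 the transcript with the 75-base exon held 50.6% and 55.6%. Measured from the coverage of the exon itself against its neighbours, that share was 46.8% and 63.4%, the largest change on this measure, on 17.1 and 19.0 read pairs in the exon.

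In Tgfbr1, NM_009370, with the 12-base stretch, held 43.1% and 45.3%, NM_001312868 held 56.3% and 54.5%, and NM_001312869 held 0.605% and 0.224%. In Socs1, NM_009896 held 49.8% and 52.1%, and NM_001271603, whose second exon is 120 bases longer, the remainder. These shares of TPM changed by at most 2.31 points in both genes. By the coverage of the differing exons, NM_001312869 came to 14.3% and 6.75% and NM_001312868 to 55.5% and 50.4%, so the shares in Tgfbr1 depend on how they are measured.

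**Figure D4:**
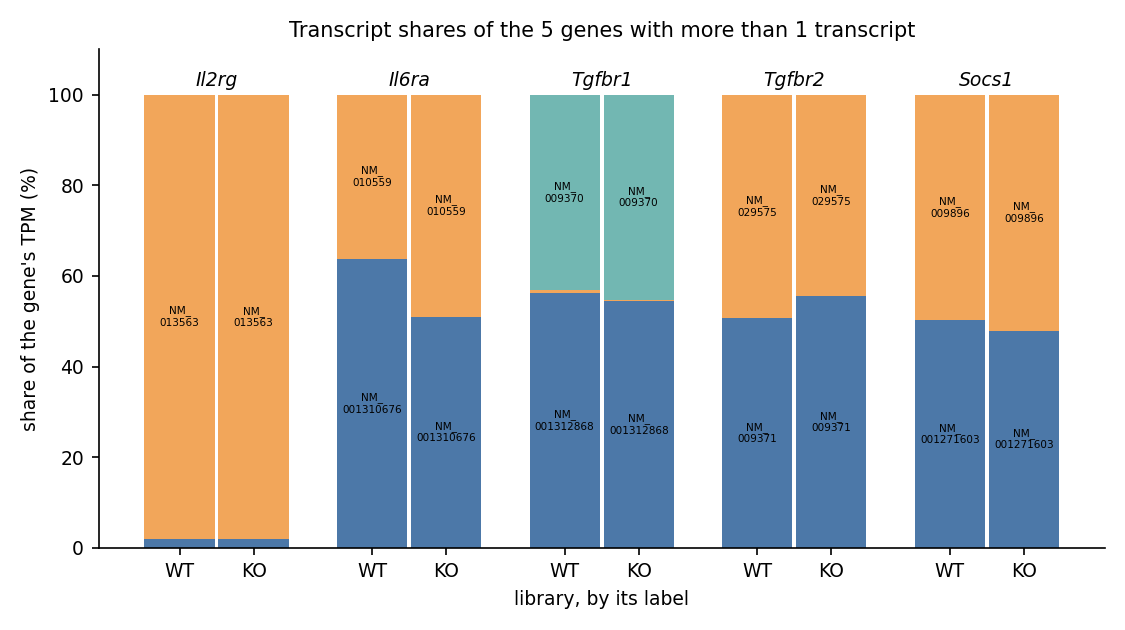
Share of each gene's TPM by annotated transcript, in percent, in the wild-type library (WT) and the KO-labelled library (KO), for the 5 genes with more than 1 transcript. The largest change in TPM share is the 12.7-point change between the transcripts of Il6ra, and the shorter Il2rg transcript stays near 2.03% and 1.90%.

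The partner subunits of these receptors were close to the background of all genes in their counts. Of 11 partner genes 10 had at least 1 TPM, and 7 of these were below zero, against 61.5% of all genes. Their median was -0.19, and 1 was at least 0.5 lower, against 6.42% of all genes. This was Tgfbr3, a TGF-beta co-receptor, at 8.27 and 5.38 TPM (log2 fold change -0.54). Acvr1b, an activin receptor kinase, followed at 38.7 and 28.6 TPM (-0.42). Il6st, which encodes the gp130 partner of the IL-6 receptor, stood at 218 and 163 TPM (-0.42), and Il21r, the specific chain for IL-21, at 222 and 236 TPM (0.09). Ifnar2, the partner of IFNAR1, stood at 54.4 and 58.9 TPM (0.11), and Il2ra, the alpha chain for IL-2, at 6.02 and 6.50 TPM (0.09).

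The kinases and STAT factors that carry the signal differed in 1 direction by a small amount, lower in the KO-labelled library. All 11 (4 JAK kinases and 7 STAT factors) were below zero on TPM, where 61.5% of all genes were (10 of 11 on FPKM and after median-ratio rescaling). None reached a size of 0.5, against 9.78% of all genes. The median of the 11 was -0.30. The lowest were Tyk2, at 48.4 and 36.9 TPM (-0.38), and Jak3, the kinase bound to the common gamma chain, at 48.7 and 37.7 TPM (-0.36). Stat4 was at 32.6 and 29.3 TPM (-0.15). The most abundant were Stat5b, which acts below IL-2 and IL-7, at 485 and 389 TPM, and Jak1, at 436 and 354 TPM.

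The SMAD genes, which act below the TGF-beta receptors, were also below zero in all 9 of 11 with at least 1 TPM (8 of 9 on FPKM, where Smurf2 was above), against 61.5% of all genes on TPM. Their median was -0.27, and -0.17 on FPKM and -0.54 outside the terminal exon. One of the 9 passed a size of 0.5, against 9.78% of all genes. This was Smad7, an inhibitory SMAD that TGF-beta itself induces, at 6.94 and 4.23 TPM (-0.60). Skil stood at 34.3 and 25.8 TPM (-0.40) and Ski at 85.6 and 65.5 TPM, both SMAD co-repressors. Smad4, the common SMAD, stood at 92.4 and 81.7 TPM, Smad2 at 24.7 and 22.9 TPM (-0.10), and Smurf2, a ubiquitin ligase, at 23.6 and 22.4 TPM (-0.07).

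Of the 16 SOCS family genes and other brakes, 15 were measured and 11 were below zero (8 of 15 on FPKM or after median-ratio rescaling), against 61.5% of all genes on TPM, with a median of -0.15. Of the 15, 3 passed 0.5 in size, against 9.78% of all genes. The largest difference was in Sh2b3, an adaptor that restrains JAK2 signalling, at 44.0 and 15.1 TPM (-1.48). Most of it lay in the terminal exon, and outside it the log2 fold change was -0.48. Socs3 stood at 8.36 and 5.43 TPM (-0.54), but at 0.29 outside the terminal exon. Usp18, an interferon-induced brake on IFNAR2, was higher, at 18.8 and 32.6 TPM (0.76), and at 0.72 outside the terminal exon. The phosphatase gene Ptpn2 had 68.7 and 80.1 TPM (0.22), and Ptpn6 had 480.2 and 503 TPM (0.07).

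**Figure D5:**
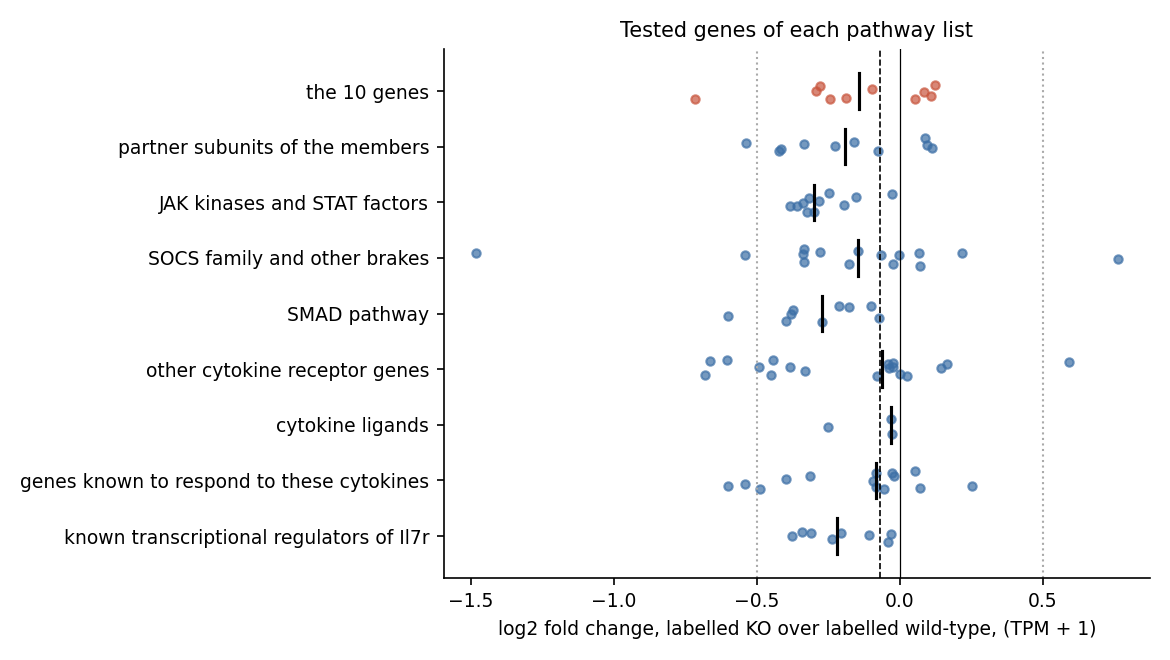
Log2 fold change (TPM + 1, KO-labelled over wild-type) of the 10 genes (red) and of the measured genes of 8 pathway lists (blue), with black bars at each median, a dashed line at the median of all measured genes and dotted lines at a size of 0.5. All 11 JAK and STAT genes lie below zero, and Sh2b3 is the lowest point at -1.48.

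Other cytokine receptor genes had a median close to that of all genes. Of 33, 18 had at least 1 TPM, 13 of them below zero (9 on FPKM or after rescaling) against 61.5% of all genes on TPM, and their median was -0.06. A size of 0.5 was passed by 4 of the 18, against 9.78% of all genes. Il3ra, the IL-3 alpha chain, was higher at 16.9 and 25.9 TPM (0.59), and Lifr, Csf2rb and the stem cell factor receptor gene Kit were lower, at 1.77 and 0.727 TPM, 2.22 and 1.03 TPM, and 2.91 and 1.57 TPM. Kit falls outside the rule for named genes and was chosen after its value was seen. The most abundant were Il17ra with 196 and 143 TPM (-0.45) and Il27ra with 97.6 and 94.9 TPM (-0.04), and Il18rap had 1.82 and 2.16 TPM (0.17).

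Little RNA for the ligands was present in these cells. Of 15 ligand genes 7, among them Il7, Il2 and Il6, were listed at 0 in both libraries, and 3 reached 1 TPM. Tgfb1 was the most abundant ligand, at 128 and 126 TPM (-0.03). Tgfb3 stood at 1.82 and 1.36 TPM and Ifng at 1.33 and 1.28 TPM.

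Genes known to respond to these cytokines had a median of -0.08 over 14 measured, close to that of all genes, and of 0.017 on FPKM, where all genes had 0.019. Of the 14, 11 were below zero (5 on FPKM), against 61.5% of all genes on TPM, and 2, Smad7 and Socs3, by at least 0.5, against 6.42%. Bcl2l1, which encodes the survival factor BCL-XL, stood at 103 and 123 TPM (0.25), and Cish, a STAT5 target, at 6.43 and 6.81 TPM (0.07). Mcl1, a survival gene, stood at 367 and 347 TPM (-0.08) and Gata3, which acts in CD4 lineage cells, at 166 and 163 TPM (-0.02).

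All 8 known transcriptional regulators of Il7r were below zero, against 61.5% of all genes on TPM, except that Gabpa and Ikzf1 were above it on FPKM and after rescaling. Their median was -0.22, and -0.12 on FPKM and -0.43 outside the terminal exon. None of the 8 passed a size of 0.5, against 9.78% of all genes. Runx3 stood at 24.7 and 18.8 TPM (-0.38) and Foxo1, an activator of Il7r, at 28.7 and 22.4 TPM (-0.34). Gabpa, an ETS family activator of Il7r, stood at 63.7 and 62.5 TPM (-0.03). The most abundant were Ets1, with 1421 and 1233 TPM (-0.20), and Ikzf1, with 654 and 636 TPM (-0.04).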

How the data were processed

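RNA sequencing libraries of sorted CD69+ DP thymocytes were analysed from the deposited tables, 1 per genotype. Per the labels' protocols, Trizol RNA (total) went into a TruSeq kit. Alignment was by HISAT2, with mm10 (GRCm38) as the build, per the submitters' processing notes. No HISAT2 version is recorded there. The authors ran StringTie 1.3.3b on RefSeq transcripts, per the file headers. The deposited values are TPM (each library sums to 1000000), FPKM and coverage, a mean read depth per base that is not scaled to library size. Deposited TPM was a constant multiple of coverage in each library, and exon coverage was scaled with it. Read pairs were estimated as covered bases over 202 (2 mates of 101 bases). Exact Poisson intervals for levels and exact Clopper-Pearson intervals for ratios (95%) cover counting error only, and reads are not independent molecules. Strand was not stated for the counting, so reads of an antisense gene cannot be told apart.

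Rows with 1 Entrez identifier were summed, and gene symbols were matched for 24462 of 24532 identifiers. Log2 fold changes used TPM + 1 and genes with at least 1 TPM in a library. With 1 library per genotype no test was run, and calls are sizes of 1 or 0.5, or 25 points of transcript share. The terminal exon is the last exon of the most abundant transcript, and the rest is all other exonic bases of the gene, from any of its transcripts, over their length. Exons with at least 20 read pairs were described singly. All 10 genes were named, and of each list the 2 highest, the 2 lowest and the 2 most abundant genes, apart from a few that are not reported here. Members and lists were chosen with earlier results of these data known. Alternatives were another pseudocount, filter, unit, scaling or part of the gene. Python 3.11.15, pandas 2.3.3 and scipy 1.17.1 were used.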

Additional observations from a re-analysis of the deposited data

How the results depend on the processing

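No paired analysis was possible because each genotype had 1 library. Of the 161 recomputed values, 119 stayed within the counting error or within 1.5 times the count, and Il6ra, past 0.5 in the report, stayed below zero in all. On FPKM, Il2rg, Il4ra, Ifngr1, Ifnar1, Tgfbr1, Tgfbr2 and Socs1 had log2 fold changes of 0.21, 0.0029, 0.18, -0.19, -0.087, -0.18 and 0.15, and the median of the 10 genes was -0.042. After rescaling by the median ratio over genes (0.952), Il2rg, Il4ra, Ifngr1 and Ifnar1 had 0.18, -0.026, 0.16 and -0.22. Outside the terminal exon, Il7r, Il4ra, Il6ra, Ifngr1, Ifnar1, Tgfbr1, Tgfbr2 and Socs1 had -0.39, -0.27, -0.16, 0.0074, -0.46, -0.49, -0.59 and -0.26, and the median was -0.26. Socs1 thus changed sign there, on 71.9 and 77.4 read pairs, and Il4ra did so on FPKM. The count of the 10 genes at least 0.5 lower was 0 with a pseudocount of 5, 0 on FPKM and 0 among the 9 genes with at least 5 TPM, a filter that removed Il6ra. The list medians on FPKM were -0.20 for JAK and STAT genes, -0.17 for SMAD genes, 0.017 for response genes and -0.12 for regulators of Il7r. Outside the terminal exon they were -0.37, -0.54, -0.21 and -0.43, and the JAK and STAT median was -0.23 after rescaling. Over all genes, the count past a size of 1 was 244 and became 444 with a pseudocount of 0.1, 55 with 5, 101 on FPKM and 129 with at least 5 TPM. The count at least 0.5 lower was 772 and became 297 with a pseudocount of 5, 351 on FPKM, 473 with at least 5 TPM and 1365 outside the terminal exon, and the count at least 0.5 higher was 405 and became 192 with a pseudocount of 5.

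Depth limits Il6ra most, with 110 and 71.3 read pairs, and the 75-base exon of Tgfbr2. Intervals do not cover differences between animals, sorts or library preparations, and an interval away from 1 in a deeply covered gene says only that the 2 libraries differ. Levels of the shorter Il2rg transcript and of transcripts that differ by few bases are estimates of the authors' assignment of reads.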
